A study of Rattus norvegicus with 40 samples.

Results

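The voltage-gated sodium and calcium channel genes were taken from the table of the hippocampus as the protein-coding genes whose names begin with Scn, a number and a or b, or with Cacna, Cacnb or Cacng. This gave 39 genes of 25958 gene identifiers in the 4 tables of the series. They comprise 10 sodium channel alpha subunits, 4 sodium channel beta subunits, 9 calcium channel alpha1 subunits, 4 calcium channel beta subunits, 4 alpha2delta subunits and 8 gamma subunits. Of the 39 genes, 38 were found by identifier in all 4 tables, and Scn11a had no row in the table of the cerebellum. A further gene, Cacna1i, matched the names but was annotated as a processed transcript and is not a member. The study measured RNA of whole tissue from rat (Rattus norvegicus) brain, 12 months after the animals had been exposed to either a blast or a sham treatment. The groups used were 5 blast and 5 sham libraries from each of the cerebellum, hippocampus, amygdala and anterior cortex, which makes 8 groups and 40 libraries. Strain, sex, age and the strength of the blast were not given in the sources used here. The labels do not say that the libraries of a group came from separate animals, so p-values measure only the spread between these libraries, which may in part be technical.

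Voltage-gated sodium channels open on depolarisation and carry the upstroke of the action potential. Each has 1 large pore-forming alpha subunit and smaller beta subunits that alter its gating and its place in the membrane. In central neurons the alpha subunits are mainly Nav1.1, Nav1.2, Nav1.3 and Nav1.6, encoded by Scn1a, Scn2a, Scn3a and Scn8a. Voltage-gated calcium channels turn depolarisation into calcium entry, which drives transmitter release, dendritic signalling and gene regulation. Their pore is the alpha1 subunit, the cytoplasmic beta and the extracellular alpha2delta subunits carry it to the membrane, and most gamma subunits of the brain are better known as TARPs, the auxiliary proteins of AMPA-type glutamate receptors. Cerebellar Purkinje cells are known for P/Q-type current, carried by the Cacna1a product.

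Library totals ran from 11268097 to 37128383 counts. The 39 genes took between 0.353% (amygdala, sham) and 0.543% (cerebellum, sham) of all counts as group means. Region identity was checked with marker genes. Summed over 5 genes, markers of cerebellar granule cells had 3425 to 3664 CPM (read counts scaled to the library total after TMM normalization) in cerebellar sham libraries and 53.7 to 175 CPM in the sham libraries of the 3 forebrain regions. Markers of Purkinje cells summed to 4081 to 4778 CPM in cerebellar sham libraries and to 468 to 1337 CPM in forebrain sham libraries. Hippocampal markers (5 genes) summed to 481 to 757 CPM in hippocampal sham libraries and 90.1 to 460 CPM in the other sham libraries. Cortical layer markers (4 genes) had 216 to 349 CPM in anterior cortex sham libraries and 42.2 to 187 CPM in the others. Amygdala markers (3 genes) summed to 29.0 to 45.2 CPM in the sham amygdala and to 79.4 to 94.1 CPM in the sham hippocampus. They marked the amygdala by mean log2 CPM (3.47 against 2.18 in the hippocampus) and not by sum. Some libraries stood apart. Choroid plexus markers summed to 7911 and 6932 CPM in hippocampal blast libraries 8 and Hip_666 and to 4785 CPM in hippocampal sham library 11, against 12.9 to 223 CPM in the other 7 hippocampal libraries. In the anterior cortex, blast library 8 and sham libraries 11, 13 and 15 had 16577 to 17845 genes detected, against 18744 to 20748 in the other 6. Hippocampal sham library 14 gave the lowest level of that sham group for most of the members and is named beside the results it touches. In whole tissue, fewer cells of a type and less RNA per cell cannot be told apart.

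In sham rats the channel genes differed widely between regions. Levels were compared by edgeR in the 20 sham libraries, and a gene was called at a Benjamini-Hochberg adjusted p under 0.05 over all 15695 genes tested. Of the 39 genes, 35 passed the filter on low counts. Cacng1, Cacna2d4, Scn10a and Scn11a did not, Scn11a for want of a row in the cerebellum. A gene that passed only through the region where it is high had to differ, so the counts describe the genes tested and not all members. A difference between any of the 4 regions was called for 33 of the 35, where 74.5% of all genes tested were called. In the cerebellum against the mean of the 3 forebrain regions, 12 members were higher and 17 lower, where 30.9% of all genes were higher and 32.1% lower. The median log2 difference of the members tested was −0.49, and that of all genes 0.00. At least a 2-fold difference was called for 22 of the 35, against 25.9% of all genes. The forebrain regions differed less among themselves. In the hippocampus against the amygdala 9 members were higher and 7 lower, where 9.14% and 11.5% of all genes were. In the hippocampus against the anterior cortex 9 were higher and 13 lower, where 22% and 21.7% of all genes were. In the amygdala against the anterior cortex 4 were higher and 7 lower, where 10.3% and 11.4% of all genes were. The median log2 difference of the members in these last 3 contrasts was 0.06, −0.16 and −0.24, against 0.01, 0.00 and 0.03 for all genes.

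**Figure D1:**
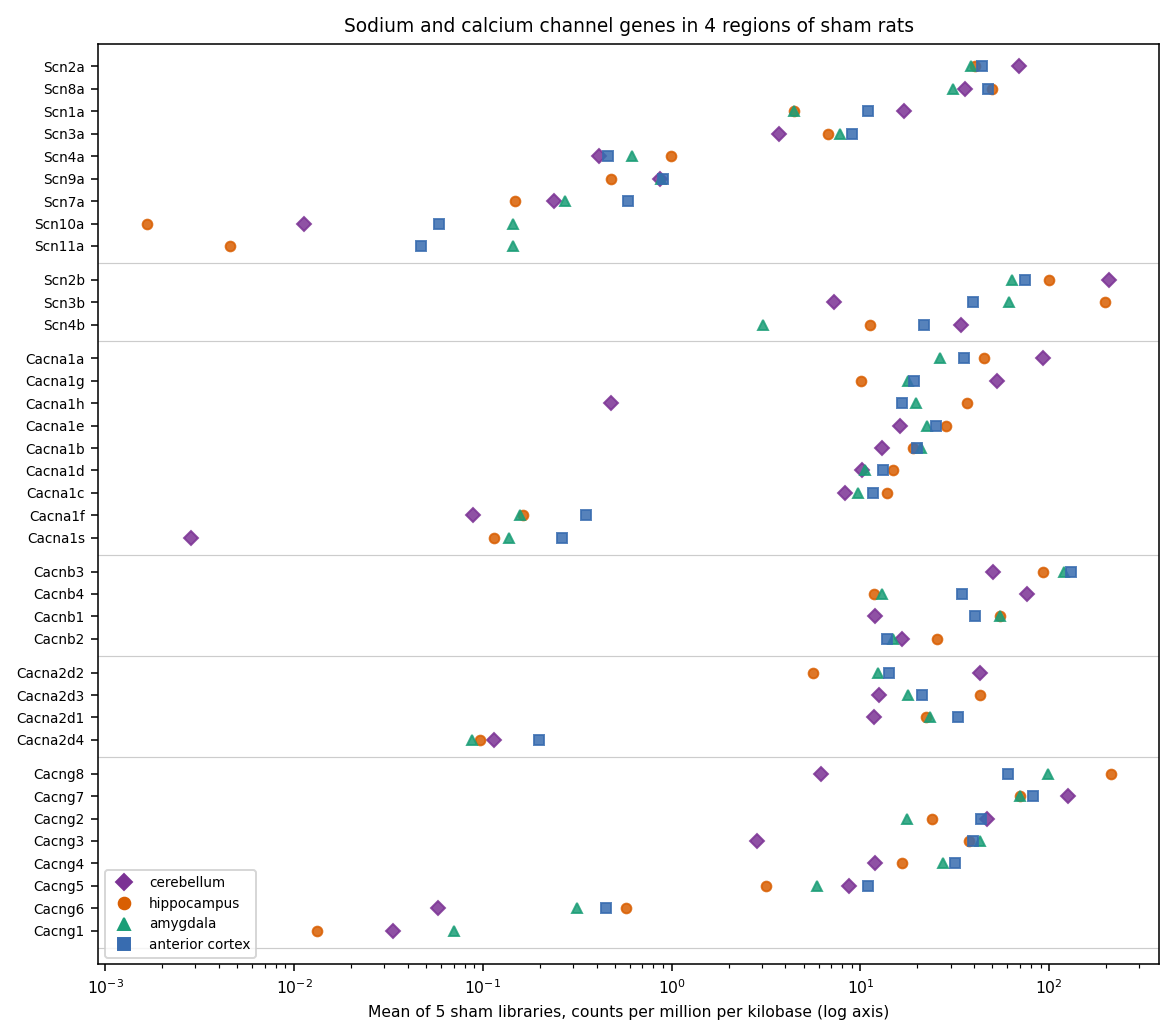
Mean level of 37 channel genes in the sham libraries of 4 brain regions (n = 5 libraries each), as CPM per kilobase of gene length on a log axis. Genes are grouped by role and ordered by their highest level. The cerebellum stands far to the left for Cacna1h, Cacna1s, Cacng8, Cacng3 and Scn3b and furthest to the right for Cacna1a, Cacnb4 and Cacna2d2. Cacng1 had no counts in the anterior cortex and Scn11a no row in the cerebellum.

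Among the sodium channel alpha subunits, Scn2a and Scn8a were the most abundant per length in every region. Scn2a encodes Nav1.2, found on unmyelinated axons and the proximal initial segment, and Scn8a encodes Nav1.6, the main channel of mature nodes of Ranvier. Scn2a led in the cerebellum with 68.8 ± 6.45 CPM per kilobase (SD, n = 5) and in the amygdala with 38.4 ± 6.67. Scn8a led in the hippocampus with 49.6 ± 18.7 and in the anterior cortex with 47.5 ± 23.4. These leads are within the spread between libraries in the hippocampus and the anterior cortex, where the other of the 2 genes stood at 40.2 ± 7.14 and 44.1 ± 21.2 CPM per kilobase. As a share of the summed alpha subunits, Scn2a made up 54.3% in the cerebellum, and Scn8a 46.6% in the hippocampus. In the cerebellum against the forebrain, Scn2a was higher (log2 difference 0.74 ± 0.17 SE, adjusted p = 0.000787), and so was Scn1a, the Nav1.1 gene of fast-spiking interneurons and Purkinje cells (log2 difference 1.496 ± 0.15 SE, adjusted p = 1.79e-08). Scn3a, the Nav1.3 gene, which is known for its high level before birth, was lower there (log2 difference −1.08 ± 0.13 SE, adjusted p = 4.16e-07).

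Scn1a had 191, 204, 238, 166 and 216 CPM in cerebellar sham libraries. It had 43.9, 60.3, 34.98, 73.4 and 50.3 CPM in the hippocampus, 43.3, 59.1, 53.6, 64.9 and 44.1 CPM in the amygdala and 116, 127, 109, 202 and 98.99 CPM in the anterior cortex. The cerebellum overlapped only the anterior cortex, through sham library 15, and the order of the regions by mean was cerebellum, anterior cortex, then amygdala and hippocampus, whose difference was not called (log2 difference of the hippocampus against the amygdala −0.02 ± 0.20 SE, adjusted p = 0.971). The amygdala lay below the anterior cortex for Scn1a (log2 difference −1.32 ± 0.20 SE, adjusted p = 9.7e-05). Scn8a was not called between regions (adjusted p = 0.101). Its hippocampal sham values were 374, 357, 118, 422 and 428 CPM, of which library 14 is the low one. Without that library, or without anterior cortex sham library 33, the difference between regions was called for Scn8a, and without library 14 also for Cacna1e.

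Scn10a and Scn11a, which encode the Nav1.8 and Nav1.9 channels of sensory neurons, were near the floor. Scn10a had 5 counts over the 5 cerebellar sham libraries, 1 over those of the hippocampus, 64 over those of the amygdala and 21 over those of the anterior cortex. Scn11a had 2, 57 and 16 counts over the sham libraries of the hippocampus, the amygdala and the anterior cortex. Scn4a, the sodium channel of skeletal muscle, averaged 2.87 ± 1.12 CPM (SD, n = 5) in the cerebellum and 6.87 ± 1.86 CPM in the hippocampus. Skeletal muscle markers (4 genes) summed to 4.38 to 7.93 CPM in cerebellar sham libraries and to 16.5 to 37.9 CPM in forebrain sham libraries, and their part in the values of Scn4a and Cacna1s was not tested.

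Scn7a, the Nax channel gene, and Scn9a, the Nav1.7 gene of pain-sensing neurons, were low in every region. Scn7a averaged 0.761 ± 0.355 CPM (SD, n = 5) in hippocampal and 3.01 ± 0.282 CPM in anterior cortex sham libraries (log2 difference −1.999 ± 0.34 SE, adjusted p = 9.15e-05). Scn9a was lower in the hippocampus than in the amygdala (−0.89 ± 0.18 SE, adjusted p = 0.000953) and did not differ by call between the cerebellum and the forebrain (0.25 ± 0.14 SE, adjusted p = 0.126). Of the 8 alpha subunits tested, 2 were higher and 3 lower in the cerebellum than in the forebrain, where 30.9% of all genes were higher and 32.1% lower. The 3 include a member that passed the filter on low counts only through the forebrain, so its lower level was fixed by the filter. Counts this small are a description only.

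Sodium channel beta subunits are single-pass membrane proteins with an immunoglobulin-like domain, and beta2 and beta4 are bound to the alpha subunit by a disulphide bridge. Scn2b was higher in the cerebellum than in the forebrain (log2 difference 1.40 ± 0.12 SE, adjusted p = 1.87e-09). It was also higher in the hippocampus than in the amygdala (log2 difference 0.64 ± 0.16 SE, adjusted p = 0.00564).

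Scn3b and Scn4b, the genes of beta3 and beta4, ran in different directions. Scn3b had 25.1, 31.9, 36.5, 23.5 and 23.8 CPM in cerebellar sham libraries and 679.7, 819.8, 615, 828 and 874 CPM in hippocampal ones. It had 226, 242, 217, 289 and 208 CPM in the amygdala and 117, 153, 182, 187 and 129 CPM in the anterior cortex. Every hippocampal library was above every library of the other regions and every cerebellar library below them. The log2 difference was −3.43 ± 0.15 SE, adjusted p = 2.92e-14 in the cerebellum against the forebrain, 1.69 ± 0.15 SE, adjusted p = 4.74e-08 in the hippocampus against the amygdala and 2.29 ± 0.15 SE, adjusted p = 4.34e-10 in the hippocampus against the anterior cortex. Between the amygdala and the anterior cortex it was 0.60 ± 0.15 SE, adjusted p = 0.00703, which was no longer called without sham libraries 11, 13 and 15 of the anterior cortex and 11 of the hippocampus (adjusted p = 0.07). Scn4b, whose product takes part in the resurgent sodium current of Purkinje cells, had 144, 138, 145, 145 and 154 CPM in cerebellar sham libraries and 46.97, 48.1, 43.6, 55.4 and 46.6 CPM in hippocampal ones. It had 17.2, 13.4, 11.5, 11.6 and 10.9 CPM in the amygdala and 108, 98.2, 94.1, 85.8 and 78.8 CPM in the anterior cortex. The 4 regions did not overlap, in the order cerebellum, anterior cortex, hippocampus, amygdala. The amygdala stood −2.87 on the log2 scale against the anterior cortex (adjusted p = 2.44e-12), the hippocampus 1.89 against the amygdala (adjusted p = 2.93e-10), and the cerebellum 1.90 against the forebrain (adjusted p = 2.3e-14). Scn4b is also known from the striatum. Of the 4 regions, the anterior cortex had the highest mean of 5 striatum markers (log2 CPM 4.98 ± 0.26 in sham libraries, SD, n = 5), and their part in the level of Scn4b there was not tested.

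Cacna1a, the gene of the P/Q-type alpha1 subunit of presynaptic terminals (identifier ENSRNOG00000052707, chromosome 19, 25526751 to 25749550 in the deposited tables, for which no build is named), was the most abundant alpha1 member per length in all 4 regions. It had 851, 790.4, 934, 707 and 846 CPM in cerebellar sham libraries. It had 414, 431, 256, 419 and 478 CPM in the hippocampus, 226, 242, 240.3, 242 and 225 CPM in the amygdala and 319, 323, 305, 369 and 263 CPM in the anterior cortex. Every cerebellar library was above every forebrain library, and hippocampal library 14 was again the low one of its group. Cacna1a made up 47.8% of the summed alpha1 level per length in the cerebellum, against 27.1% in hippocampus, 20.7% in amygdala and 25.4% in anterior cortex. Its log2 difference in the cerebellum against the forebrain was 1.40 ± 0.10 SE, adjusted p = 6.28e-11.

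The T-type genes, whose channels open near the resting potential, split between regions. Cacna1g, the Cav3.1 gene, averaged 405 ± 38.9 CPM (SD, n = 5) in the cerebellum, 77.1 ± 6.51 in hippocampus, 137 ± 11.4 in amygdala and 147 ± 11.02 in anterior cortex of sham rats. It was higher in the cerebellum than in the forebrain (1.80 ± 0.065 SE, adjusted p = 9.71e-16) and lower in the hippocampus than in the amygdala (−0.84 ± 0.087 SE, adjusted p = 3.91e-07). Cacna1h, the Cav3.2 gene, was nearly the reverse. It had 3.71, 3.75, 3.83, 2.67 and 4.80 CPM in cerebellar sham libraries and 294, 279.9, 189, 309 and 367 CPM in hippocampal ones. It had 156, 142, 175, 146 and 154 CPM in the amygdala and 152, 136, 120.5, 124 and 122 CPM in the anterior cortex. All cerebellar libraries were below 5 CPM and all hippocampal libraries above every other library. The log2 difference was −5.60 ± 0.17 SE, adjusted p = 5.11e-17 in the cerebellum against the forebrain, 0.89 ± 0.14 SE, adjusted p = 6.6e-05 in the hippocampus against the amygdala and 1.11 ± 0.14 SE, adjusted p = 2.87e-06 in the hippocampus against the anterior cortex. Cacna1i, the third T-type gene, is not a member because of its annotation and is left out of the alpha1 shares. It averaged 159 ± 24.3 CPM in the cerebellum, 163 ± 51.03 in hippocampus, 137 ± 10.4 in amygdala and 328 ± 109.7 in anterior cortex. Per length, Cacna1i stood at 47.1 ± 15.8 CPM per kilobase in the anterior cortex, above Cacna1a at 35.4 ± 4.27, and within the spread between libraries.

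The other alpha1 subunits were more even. Cacna1b, the N-type gene of presynaptic terminals, was lower in the cerebellum than in the forebrain (log2 difference −0.63 ± 0.15 SE, adjusted p = 0.0008). Cacna1e, the R-type gene, had a difference that just missed the threshold (−0.65 ± 0.28 SE, adjusted p = 0.0501), and the test over all 4 regions did not call it (adjusted p = 0.146). Its hippocampal sham values were 252, 252, 57.1, 303 and 219 CPM, with library 14 far below the rest. Cacna1c and Cacna1d, the L-type genes of the brain, gave −0.49 ± 0.20 SE, adjusted p = 0.0414 and −0.34 ± 0.16 SE, adjusted p = 0.0708 in the cerebellum against the forebrain. The call of Cacna1c was lost in 13 of the 20 fits that each left out 1 sham library, among them the 5 that left out a cerebellar one. Cacna1s, the L-type gene of skeletal muscle, had 1 count in all over the 5 cerebellar sham libraries, against 44 in hippocampus, 54 in amygdala and 86 in anterior cortex. The hippocampal level was 45.4 times the cerebellar one (95% interval 7.74 to 1834, counting error only). Of the 9 alpha1 subunits tested, 2 were higher and 5 lower in the cerebellum, against 30.9% and 32.1% of all genes, and counts this small are a description only. The 5 include Cacna1s, which passed the filter only through the forebrain.

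The leading cytoplasmic beta subunit differed between cerebellum and forebrain. Cacnb4, known from the epileptic and ataxic lethargic mouse, had 296, 264, 336, 254 and 295 CPM in cerebellar sham libraries. It had 45.9, 50.99, 25.01, 52.6 and 49.04 CPM in the hippocampus, 49.8, 53.6, 55.7, 49.3 and 37.4 CPM in the amygdala and 138, 147, 90.8, 193 and 80.04 CPM in the anterior cortex. The cerebellum was above all forebrain libraries, and the anterior cortex spread widely, with libraries 11, 13 and 15 the highest there. The log2 difference was 2.12 ± 0.16 SE, adjusted p = 1.46e-10 in the cerebellum against the forebrain. In the amygdala against the anterior cortex it was −1.43 ± 0.21 SE, adjusted p = 9.62e-05, and −0.80 without the 4 sham libraries that stood apart (adjusted p = 0.0272). Cacnb4 took 49.04% of the summed beta level per length in the cerebellum, against 6.39% in hippocampus, 6.39% in amygdala and 15.7% in anterior cortex. Cacnb3 led in the forebrain instead, with 50.1% in hippocampus, 59.1% in amygdala and 59.5% in anterior cortex. Cacnb3 and Cacnb1 were lower in the cerebellum than in the forebrain (−1.17 ± 0.076 SE, adjusted p = 1.78e-11 for Cacnb3 and −2.07 ± 0.079 SE, adjusted p = 2.26e-15 for Cacnb1), while Cacnb2 was not called (−0.07 ± 0.11 SE, adjusted p = 0.62).

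**Figure D2:**
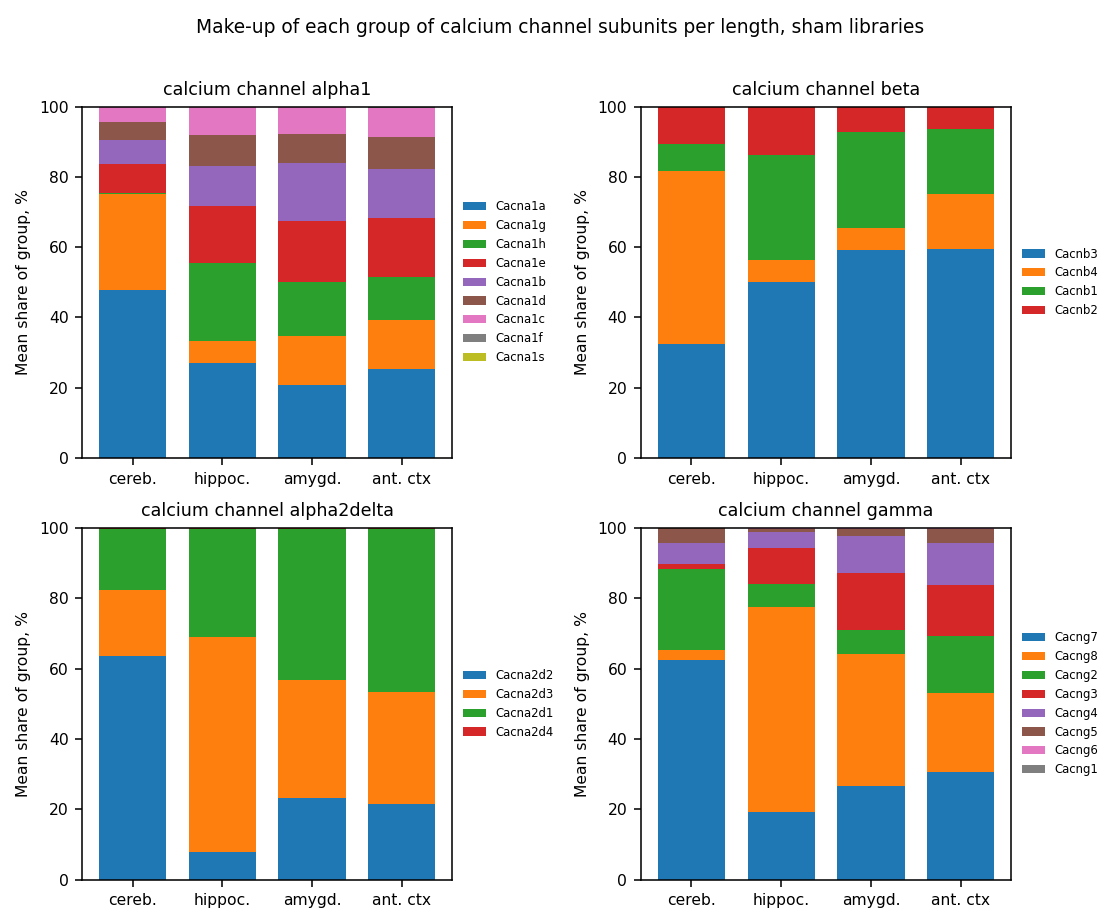
Make-up of each group of calcium channel subunits in sham libraries. Bars show the mean share of each gene in the summed CPM per kilobase of its group, in percent, by region (n = 5 libraries each), with Cacna1i left out. Cacna1a, Cacnb4, Cacna2d2 and Cacng7 take the largest shares of the 4 groups in the cerebellum, while the hippocampus is led by Cacna1a, Cacnb3, Cacna2d3 and Cacng8.

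The alpha2delta subunits, which are the binding sites of gabapentin in the case of Cacna2d1 and Cacna2d2, differed in their leading gene between regions. Cacna2d2 (ENSRNOG00000015835, chromosome 8, 116154736 to 116284985), the gene mutated in the ataxic ducky mouse, had 199.7, 198, 222, 191 and 206 CPM in cerebellar sham libraries. It had 29.9, 28.4, 20.6, 28.1 and 25.3 CPM in the hippocampus, 63.2, 52.9, 62.2, 63.3 and 52.7 CPM in the amygdala and 66.8, 65.7, 73.3, 58.5 and 70.1 CPM in the anterior cortex. The cerebellum lay above and the hippocampus below all other libraries. Cacna2d3 (ENSRNOG00000031287, chromosome 16, 4871650 to 5795825) had 42.97, 38.6, 43.4, 40.8 and 40.7 CPM in the cerebellum and 128, 128, 139, 162 and 145 CPM in the hippocampus. It had 69.4, 63.5, 50.5, 62.3 and 47.1 CPM in the amygdala and 60.3, 71.8, 70.9, 81.3 and 63.9 CPM in the anterior cortex. Here the hippocampus was above and the cerebellum below all other libraries. Cacna2d2 made up 63.6% of the summed alpha2delta level per length in the cerebellum and 7.93% in the hippocampus, and Cacna2d3 made up 18.7% and 61.1% in the same regions. Cacna2d1 led in the amygdala, at 23.4 ± 5.43 CPM per kilobase, and in the anterior cortex, at 32.7 ± 13.95. In the cerebellum against the forebrain the log2 difference was 2.10 ± 0.071 SE, adjusted p = 3.08e-16 for Cacna2d2, −1.02 ± 0.092 SE, adjusted p = 4.34e-09 for Cacna2d3 and −1.13 ± 0.21 SE, adjusted p = 9.44e-05 for Cacna2d1. In the hippocampus against the amygdala it was −1.16 ± 0.10 SE, adjusted p = 2.03e-08 for Cacna2d2 and 1.26 ± 0.11 SE, adjusted p = 2.44e-08 for Cacna2d3. Cacna2d4, a gene of the retina, had 30 counts over the 5 cerebellar sham libraries and 20 to 40 over those of the other regions.

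Promoter sequences are shown for genes with opposite differences between the cerebellum and the forebrain. RefSeq promoters of the GRCr8 assembly matched 27 of the 39 genes by symbol, in 30 windows. The 250 bases before the start are shown for 2 genes that were higher in the cerebellum, Cacna2d2 and Cacna1a, and for 2 that were lower there, Cacna2d3 and Cacng3. Capitals mark the GC box GGGCGG or its reverse complement CCGCCC, searched on both strands with overlaps counted.

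Cacna2d2 (chr8:116950856-116951105, plus strand): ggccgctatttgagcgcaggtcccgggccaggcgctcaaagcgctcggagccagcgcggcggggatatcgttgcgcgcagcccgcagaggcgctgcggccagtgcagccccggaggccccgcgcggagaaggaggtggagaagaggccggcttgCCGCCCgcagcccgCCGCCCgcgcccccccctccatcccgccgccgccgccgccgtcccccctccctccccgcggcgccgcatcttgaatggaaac

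Cacna1a (chr19:40650469-40650718, minus strand): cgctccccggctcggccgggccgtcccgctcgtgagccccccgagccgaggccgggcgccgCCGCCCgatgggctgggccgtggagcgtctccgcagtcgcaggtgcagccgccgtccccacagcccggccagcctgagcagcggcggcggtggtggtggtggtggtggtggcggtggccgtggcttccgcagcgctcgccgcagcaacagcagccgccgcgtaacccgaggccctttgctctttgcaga

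Cacna2d3 (chr16:4918900-4919149, minus strand): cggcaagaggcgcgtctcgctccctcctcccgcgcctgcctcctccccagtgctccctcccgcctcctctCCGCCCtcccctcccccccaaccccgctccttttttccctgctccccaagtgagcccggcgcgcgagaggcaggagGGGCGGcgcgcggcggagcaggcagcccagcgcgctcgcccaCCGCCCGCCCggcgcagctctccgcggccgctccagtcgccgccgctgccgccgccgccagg

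Cacng3 (chr1:186632312-186632561, plus strand): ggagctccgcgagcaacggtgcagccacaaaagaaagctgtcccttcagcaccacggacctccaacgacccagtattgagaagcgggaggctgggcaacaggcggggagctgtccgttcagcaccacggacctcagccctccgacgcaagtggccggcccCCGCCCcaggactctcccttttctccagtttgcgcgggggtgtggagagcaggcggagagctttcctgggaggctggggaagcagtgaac

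The GC box occurred 2 times in the window of Cacna2d2, 1 time in that of Cacna1a, 4 times in that of Cacna2d3, with 1 overlapping pair, and 1 time in that of Cacng3. It occurred in 15 of the 30 member windows (50%), of 13 genes, and in 30.5% of all 33469 promoter windows of the same length. The 4 windows shown were 76.8%, 76.8%, 78.8% and 64.8% G or C, in the order given, against a median of 63% over the member windows and 51.2% over all windows. The part of this content in the share of windows with a GC box was not tested. CCAAT or its reverse complement was in 4 member windows and in 34% of all windows, and TATAAA or its reverse complement in 2 member windows, those of Cacna1s and Cacng2, and in 12.9% of all. TTCAGCACC, the left part of the REST element RE1, or its reverse complement was in 1 member window, that of Cacng3, and in 0.305% of all windows. It was searched for after the windows had been read. Both genes high and genes low in the cerebellum thus held the GC box, and these matches are letters in a window and no measured sites.

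The leading gamma subunit also differed between regions. Cacng8 encodes gamma-8, the TARP known for the hippocampus, Cacng2 encodes stargazin, lost in the ataxic stargazer mouse, and Cacng7 encodes a TARP of another type. Cacng8 had 8.38, 8.66, 7.94, 6.37 and 7.79 CPM in cerebellar sham libraries and 254, 272, 245, 269 and 304 CPM in hippocampal ones. It had 133, 122, 121, 128 and 119.6 CPM in the amygdala and 72.2, 70.3, 88.5, 86.9 and 63.2 CPM in the anterior cortex. The 4 regions did not overlap, in the order hippocampus, amygdala, anterior cortex, cerebellum. The log2 difference was −4.14 ± 0.11 SE, adjusted p = 3.41e-18 in the cerebellum against the forebrain, 1.10 ± 0.10 SE, adjusted p = 3.87e-08 in the hippocampus against the amygdala, 1.79 ± 0.10 SE, adjusted p = 2.95e-11 in the hippocampus against the anterior cortex and 0.69 ± 0.10 SE, adjusted p = 4.48e-05 in the amygdala against the anterior cortex. Cacng8 made up 58.3% of the summed gamma level per length in the hippocampus, and Cacng7 made up 62.3% in the cerebellum. Cacng7 averaged 82.4 ± 28.3 CPM per kilobase in the anterior cortex, where it led the group. Cacng6, Cacng7 and Cacng8 lie next to each other on chromosome 1, between 64305438 and 64405149 in the deposited tables. Against the forebrain, the cerebellum had Cacng7 higher (0.76 ± 0.12 SE, adjusted p = 1.92e-05) and Cacng8 lower. Cacng6 had 3 to 4 counts in each cerebellar sham library and passed the filter on low counts only through the forebrain. Its log2 difference of −2.86 ± 0.43 SE is therefore a description only, since a lower level in the cerebellum was fixed by the filter.

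Cacng2 was higher in the cerebellum than in the mean of the 3 forebrain regions (0.81 ± 0.19 SE, adjusted p = 0.000682), and so was Cacng5 (0.55 ± 0.18 SE, adjusted p = 0.0132), while Cacng3 and Cacng4 were lower (−3.83 ± 0.13 SE, adjusted p = 2.79e-16 for Cacng3 and −1.04 ± 0.092 SE, adjusted p = 2.81e-09 for Cacng4). For Cacng2 the sham libraries of the anterior cortex, given below with the blast results, overlapped those of the cerebellum (119 to 153 CPM). Cacng3 averaged 5.79 ± 0.507 CPM (SD, n = 5) in the cerebellum, against 76.9 ± 8.92, 87.7 ± 15.2 and 80.4 ± 11.04 in the hippocampus, amygdala and anterior cortex. Cacng5 was lower in the hippocampus than in the amygdala (−0.89 ± 0.24 SE, adjusted p = 0.0103) and than in the anterior cortex (−1.81 ± 0.24 SE, adjusted p = 5.8e-06). By these differences and that of the cerebellum, Cacng5 stood higher in the anterior cortex than in the cerebellum, a contrast that was not tested. Cacng1, the gamma subunit of skeletal muscle, had 3 counts over the 5 cerebellar sham libraries, 1 in hippocampus, 6 in amygdala and 0 in anterior cortex. Of the 7 gamma subunits tested, 3 were higher and 4 lower in the cerebellum, against 30.9% and 32.1% of all genes. The 4 include Cacng6, which passed the filter only through the forebrain.

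The blast libraries gave the same contrasts a separate measurement, since they share no library with the sham ones. This comparison was chosen after the sham values had been seen. In the cerebellum against the forebrain, 29 members were called in the blast libraries, where 67.5% of all genes were, and 27 of them were called in the same direction in sham, which is 93.1% of each list. In the hippocampus against the amygdala, all 16 members called in sham were called in the same direction in blast (100% of the sham list and 64% of the blast list of 25), where 28.5% of all genes were called in blast. In the hippocampus against the anterior cortex it was 19 members (86.4% of the sham list and 73.1% of the blast list), where 36.0% of all genes were called in blast. In the amygdala against the anterior cortex it was 11 members (100% and 64.7%), where 25.1% of all genes were called in blast. All these lists hold only the 35 members tested in both the sham and the blast libraries. No member was called in opposite directions in any of these 4 contrasts. The same agreement was not counted over all genes, so the percentages describe the members only. For members that passed the filter on low counts only through the forebrain, a lower level in the cerebellum was fixed by the filter. Cacna1e and Scn8a were called between the 4 regions in the blast libraries and not in the sham ones. Cacna1s, which passed the filter only through the forebrain, had 7 counts over the 5 cerebellar blast libraries, against 30 in hippocampus, 34 in amygdala and 216 in anterior cortex of blast rats. Of the 216, 1 library held 143.

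**Figure D3:**
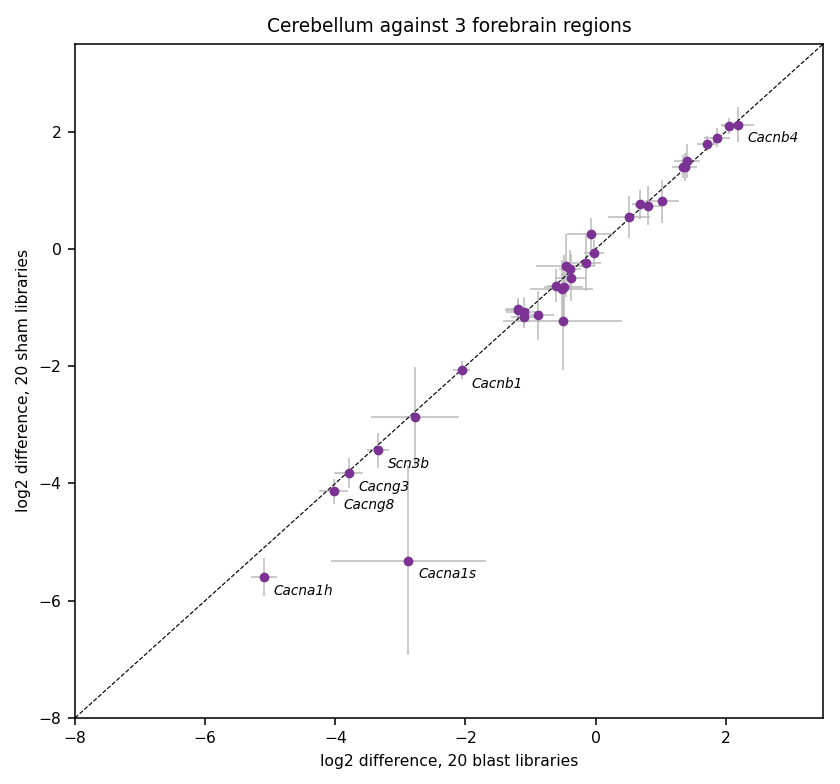
Log2 difference of the cerebellum against the mean of the 3 forebrain regions for 33 channel genes tested in both sets, in 20 blast libraries (x axis) and in 20 sham libraries (y axis). Bars are 95% intervals and the dashed line marks equal values. Most genes lie on the line, from Cacnb4 near 2.12 in sham to Cacng8 near −4.14, and Cacna1s, with 7 counts in cerebellar blast and 1 in cerebellar sham libraries, lies furthest below it.

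**Figure D4:**
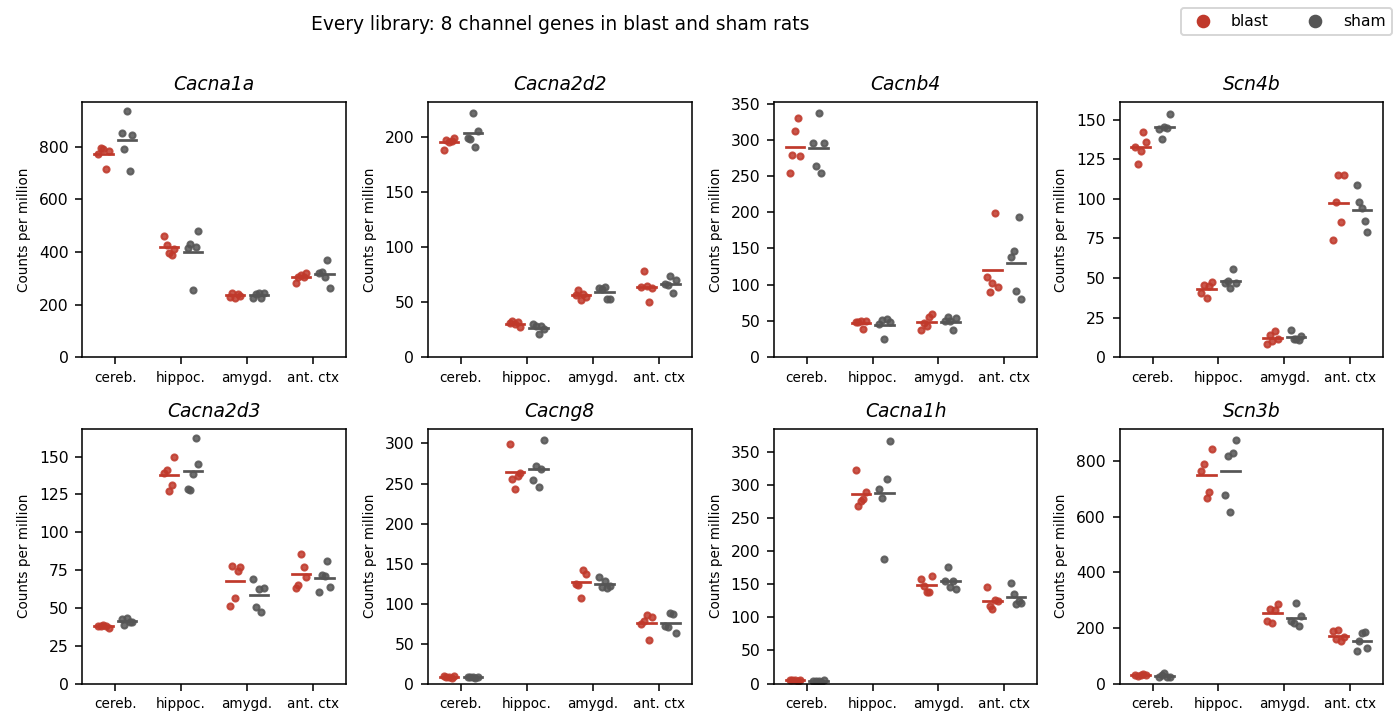
CPM of 8 channel genes in every library, by region, with blast libraries on the left in red and sham libraries on the right in grey (n = 5 each). Horizontal lines are group means and each panel has its own axis from 0. Each gene differs between regions, while blast and sham libraries of a region overlap in each panel except Cacna2d3 in the cerebellum.

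Blast against sham was compared within each region, 12 months after exposure. By edgeR no channel gene was called in any region, and 0% of all genes were called in any of the 4. In the hippocampus 34 of the 39 members passed the filter on low counts, in the amygdala 35, in the anterior cortex 36 and in the cerebellum 32. At an unadjusted p under 0.05 there was 1 member in the hippocampus, where 1.89% of all genes had such a p. There were 2 in the amygdala, where 8.67% of all genes had one, 1 in the anterior cortex, where 4.32% had one, and 5 in the cerebellum, where 4.62% had one. DESeq2 called no member either, and 1 gene of all in the hippocampus, 9 in the amygdala, 0 in the anterior cortex and 5 in the cerebellum. It had 0, 2, 3 and 4 members at an unadjusted p under 0.05 in the same order. The median log2 fold change of the members tested was −0.04 in cerebellar libraries, −0.02 in both hippocampal and amygdalar ones and −0.10 in those of the anterior cortex, against 0.00 for all genes in each. More members were lower than higher in blast: 20 of 32 in the cerebellum, 23 of 34 in hippocampus, 23 of 35 in amygdala and 23 of 36 in anterior cortex. Of all genes, with a median of 0.00, about as many were lower as higher. These counts are a description only, since the direction was not tested and members can shift together within a library.

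Scn1a had a log2 fold change of −0.11 (95% interval −0.27 to 0.06) in the cerebellum, of 0.07 (95% interval −0.27 to 0.41) in the hippocampus, −0.04 (95% interval −0.26 to 0.18) in the amygdala and −0.03 (95% interval −0.47 to 0.42) in the anterior cortex. For Scn2a it was −0.02 (95% interval −0.18 to 0.13), −0.03 (95% interval −0.26 to 0.21), −0.05 (95% interval −0.28 to 0.18) and −0.14 (95% interval −0.69 to 0.41) in that order of regions, and for Scn8a −0.02 (95% interval −0.19 to 0.15), 0.08 (95% interval −0.44 to 0.60), −0.06 (95% interval −0.28 to 0.15) and −0.30 (95% interval −0.89 to 0.29). For each of these 3 genes the interval was narrowest in the cerebellum and widest in the anterior cortex. Cacna1a, the leading alpha1 gene, had −0.09 (95% interval −0.21 to 0.04), 0.06 (95% interval −0.21 to 0.33), −0.0011 (95% interval −0.10 to 0.10) and −0.08 (95% interval −0.30 to 0.15).

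**Figure D5:**
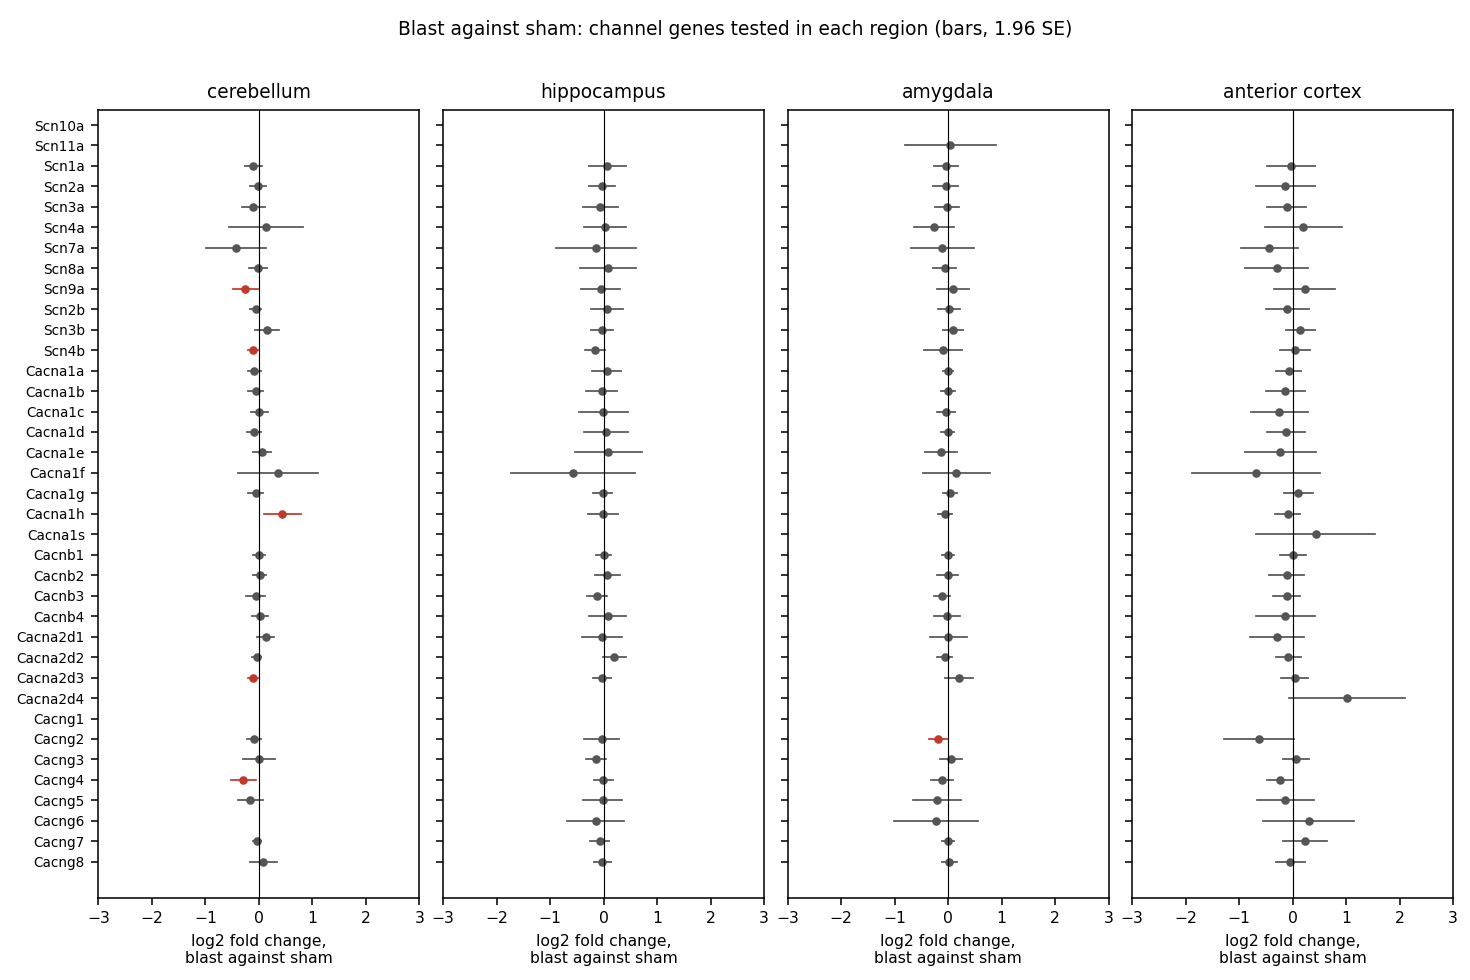
Log2 fold change of blast against sham for 37 channel genes, where tested, in each of 4 regions (n = 5 blast and 5 sham libraries each). Bars are 95% intervals, and red marks an unadjusted p under 0.05. Most points lie near 0, with 5 red points in the cerebellum and 1, Cacng2, in the amygdala, and none of them was called after adjustment.

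The difference of the blast effect between the 4 regions was tested by the interaction term in 1 model of 40 libraries. No member of 37 tested was called, and 0% of all genes were. DESeq2 called 5 genes, none of them a member. Of the 37, 1 had an unadjusted p under 0.05, where 4.76% of all genes had one. The next smallest were those of Cacna1h (unadjusted p = 0.052) and Cacna1s (unadjusted p = 0.089).

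In the cerebellum 5 members had an unadjusted p under 0.05, 4 of them lower in blast. Cacna2d3 had 37.8, 37.9, 37.9, 36.9 and 38.4 CPM in blast libraries, against 42.97, 38.6, 43.4, 40.8 and 40.7 CPM in sham libraries (log2 fold change −0.12 ± 0.049 SE, unadjusted p = 0.0327 and adjusted p = 0.999). All blast libraries were below all sham libraries, and it was the 1 member of 32 without overlap in the cerebellum, where 0.758% of all genes had none. In the hippocampus, amygdala and anterior cortex no member was without overlap, where 0.252%, 1.51% and 0.630% of all genes were. Cacng4, a TARP gene, had 27.2, 40.6, 43.5, 36.5 and 41.7 CPM in blast libraries, against 45.4, 51.5, 51.8, 43.5 and 40.9 CPM in sham libraries (log2 fold change −0.29 ± 0.11 SE, unadjusted p = 0.0253 and adjusted p = 0.999). The groups overlapped, and blast library 4 was the lowest. Cacna1h, the Cav3.2 gene, had 5.15, 3.71, 5.90, 5.27 and 5.11 CPM in blast libraries, against 3.71, 3.75, 3.83, 2.67 and 4.80 CPM in sham libraries (log2 fold change 0.44 ± 0.18 SE, unadjusted p = 0.0286 and adjusted p = 0.999). The groups overlapped there as well. Scn4b and Scn9a gave log2 fold changes of −0.12 ± 0.048 SE, unadjusted p = 0.0291 and adjusted p = 0.999 for Scn4b and −0.26 ± 0.12 SE, unadjusted p = 0.0479 and adjusted p = 0.999 for Scn9a, with overlapping groups. Some of the marker lists differed in mean between blast and sham libraries of the cerebellum, with overlapping ranges. The summed level of 5 Purkinje cell markers was 3809 to 4189 CPM in blast and 4081 to 4778 CPM in sham libraries, and the mean of 4 of the 5 genes was lower in blast. Markers of meningeal fibroblasts (4 genes) summed to 30.01 to 44.7 CPM in blast and to 9.56 to 35.7 CPM in sham libraries, and those of smooth muscle cells and pericytes (4 genes) to 66.7 to 71.8 CPM in blast and to 50.3 to 72.1 CPM in sham libraries. None of these markers was at 0 in a cerebellar library, and their part in the values of the 5 members was not tested. Choroid plexus markers summed to 37.3 to 2254 CPM in blast and to 35.4 to 1033 CPM in sham libraries, and their part was not tested either. The granule cell list hardly differed, with a mean log2 CPM of 9.44 in blast and 9.43 in sham libraries. Without blast library 4 of the cerebellum only Cacng4 of the 5 members kept an unadjusted p under 0.05.

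Cacng2, the stargazin gene, had an unadjusted p under 0.05 in the amygdala. It had 42.5, 46.1, 39.8, 52.3 and 41.3 CPM in blast libraries, against 44.3, 51.5, 54.1, 48.1 and 54.3 CPM in sham libraries. The groups overlapped, and the log2 fold change was −0.18 ± 0.084 SE, unadjusted p = 0.0462 and adjusted p = 0.569. In the anterior cortex Cacng2 had 64.3, 136, 57.5, 67.98 and 77.8 CPM in blast libraries, against 137, 141, 65.7, 203 and 70.8 CPM in sham libraries, a log2 fold change of −0.64 ± 0.33 SE, unadjusted p = 0.0792 and adjusted p = 0.799. The high values were those of blast library 8 and sham libraries 11, 13 and 15, and without these 4 the log2 fold change was −0.04.

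Other members named in each region had an unadjusted p above 0.05. In the hippocampus the log2 fold change was 0.20 for Cacna2d2 and 0.07 for Cacnb2 among those higher in blast. It was −0.16 for Scn4b, −0.14 for Cacng3 and −0.13 for Cacnb3 among those lower. In the amygdala it was 0.21 for Cacna2d3, 0.10 for Scn3b and −0.12 for Cacnb3. In the anterior cortex it was 1.01 for Cacna2d4, 0.23 for Cacng7 and −0.24 for Cacng4. In the cerebellum it was 0.12 for Cacna2d1 and 0.15 for Scn3b. Cacna2d4 in the anterior cortex had 132 counts over the blast libraries, of which 1 library held 73, and 40 over the sham libraries. Per library it had 6 to 73 counts in blast and 2 to 11 in sham. These counts are not scaled to the library totals, which ran from 11268097 to 37128383 in that region. Of the T-type and L-type genes, Cacna1g and Cacna1c had log2 fold changes in the cerebellum, hippocampus, amygdala and anterior cortex of −0.06, −0.01, 0.03 and 0.10 for Cacna1g and of 0.0092, −0.0025, −0.04 and −0.25 for Cacna1c. The authors' deposited table called no member in any region either, with an unadjusted p for Cacng4 of 0.0124 in the cerebellum and 0.0381 in the anterior cortex.

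The other genes of these pathways were taken from a list of 39 names, of which 36 were matched. It holds channel partners such as the fibroblast growth factor homologous factors that bind sodium channels, the ankyrins that anchor them, calmodulins, RGK proteins, ryanodine receptors and the NALCN complex. In the cerebellum against the forebrain of sham rats 9 of 33 tested were higher and 12 lower, near the 30.9% and 32.1% of all genes. Fgf13, whose product binds the tail of sodium channels, and Rimbp2, a presynaptic partner of calcium channels, were lower there (−3.16 ± 0.10 SE, adjusted p = 5.11e-17 for Fgf13 and −3.45 ± 0.20 SE, adjusted p = 2.3e-12 for Rimbp2). Tpcn2, a two-pore channel gene of lysosomes, and Fgf11 were higher (1.66 ± 0.16 SE, adjusted p = 1.32e-08 for Tpcn2 and 1.02 ± 0.13 SE, adjusted p = 9.73e-07 for Fgf11). Rem2, an RGK protein gene, was higher in the hippocampus than in the amygdala (2.98 ± 0.29 SE, adjusted p = 1.39e-07) and than in the anterior cortex (2.97 ± 0.29 SE, adjusted p = 1.05e-07), and Fgf11 was lower in the hippocampus than in the amygdala (−1.28 ± 0.17 SE, adjusted p = 1.37e-05). Stac2 was lower in the hippocampus than in the anterior cortex (−2.90 ± 0.14 SE, adjusted p = 8.56e-12) and lower in the amygdala than in the anterior cortex (−2.45 ± 0.14 SE, adjusted p = 5.24e-10). In those 3 contrasts of the forebrain 8 were higher and 4 lower, 8 higher and 10 lower, and 2 higher and 9 lower, of 33 tested. Of all genes 9.14% were higher and 11.5% lower, 22% and 21.7%, and 10.3% and 11.4%, in the same order. Blast against sham gave no call among the partner genes in any region, with unadjusted p under 0.05 for 1 of 33 in the amygdala, where 8.67% of all genes had one, and 1 of 32 in the cerebellum, where 4.62% had one. These were Ryr1, a ryanodine receptor gene (log2 fold change 0.27 ± 0.11 SE, unadjusted p = 0.0288), in the amygdala and Fgf12 (−0.13 ± 0.06 SE, unadjusted p = 0.0445) in the cerebellum. Rest, the gene of a repressor of neuronal genes, had 0.52 ± 0.27 SE, unadjusted p = 0.0791 in the hippocampus.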

How the data were processed

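RNA-seq of total RNA, made with the NEBNext Ultra kit per the labels' protocols, was read from 4 tables, 1 per brain region. Each table holds whole-number read counts per gene and library as the authors deposited them, without normalization, together with the authors' own log2 fold changes, p-values and adjusted p-values of blast against sham. CASAVA is named in the submitters' processing notes. The aligner, counter, strand setting and genome build were not given in the sources used here, so reads of overlapping or closely similar genes may have been divided between them.

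Genes were filtered with filterByExpr, scaled by TMM and tested by the quasi-likelihood test of edgeR 4.0.16 (limma 3.58.1, R 4.3.3), with Benjamini-Hochberg adjustment over all genes tested and a threshold of 0.05. Blast against sham was fitted in each region (10 libraries), the regional contrasts in the 20 sham libraries over the 20814 genes found in all 4 tables, and the interaction in 40 libraries. Regions and libraries were set against each other in CPM after TMM, and different genes in CPM per kilobase of the deposited gene length. For the cerebellum 600 of 21649 shared genes had another length than in the other tables, none of them a member. Intervals of fold changes are nominal 95% intervals of 1.96 SE each way, with the SE taken from the F statistic. With few libraries they are narrower than the p-values of the test imply. Intervals on counts are exact and cover counting error only. Over 80 pairs of libraries of 1 group, chi-square divided by its degrees of freedom was at least 6.64, so no library was counted as a repeat. Totals were 11589358 to 19156693 counts in the hippocampus, 12653267 to 16433786 in the amygdala, 11268097 to 37128383 in the anterior cortex and 11655408 to 15551825 in the cerebellum. Scripts were tested on simulated data. Figures were drawn with matplotlib 3.10.9.

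Named with values were the leading member of each role per region, the main neuronal pore genes, the 3 called members with the largest differences each way per regional contrast, the 3 with the smallest p each way per blast contrast, any with an unadjusted p under 0.05, the 3 with the smallest interaction p and, of the partner genes, those with the smallest p each way. Other members were named where they complete a role. Members and lists were chosen with earlier results of these data known. Alternatives were RLE size factors, no filter, DESeq2 1.42.0, removal of a gene length trend, 1 model of 40 libraries, a replicate block, and leaving out libraries. 1 amygdala sham column carried a number that no title of its group carries, and it was used as a sham library without a number. Counts of called members cover all 39 genes, and 2 of them are not reported here individually.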

Additional observations from a re-analysis of the deposited data

Results flagged for a closer look

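In 22 of 260 groups of 5 libraries (8.46%), 1 library lay far from the other 4: its gap to the nearest of them exceeded 0.71 of the group's whole range. This cut-off gives about 1 in 20 such groups for independent values of a normal distribution. Whether CPM values meet that was not tested, and genes of a library can shift together, so the 2 shares are not compared. The 22 values belong to 15 genes, and 6 of them to blast library 8 of the anterior cortex.

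In the anterior cortex that library had 282 CPM of Cacna1e, against 130.5 to 138 CPM in the other 4 blast libraries. It had 402 CPM of Scn8a (others 218 to 251), 198 CPM of Cacnb4 (others 90.2 to 111), 136 CPM of Cacng2 (others 57.5 to 77.8) and 34.5 CPM of Cacnb2 (others 27.6 to 29.0). It also had 4.07 CPM of Cacng6 (others 1.396 to 2.12). Sham library 15 had 202 CPM of Scn1a (others 99.0 to 127) and 712 CPM of Scn2a (others 228 to 353). Blast library 8 and sham library 15 are among the 4 libraries of that region with fewer genes detected.

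In the hippocampus, sham library 14 was far below the rest of its group for Scn8a (118 CPM, others 357 to 428), Cacna1a (256 CPM, others 414 to 478) and Cacnb4 (25.01 CPM, others 45.9 to 52.6). Blast library 8, which is high in choroid plexus markers, had 38.6 CPM of Cacnb4 (others 48.3 to 50.4) and 8.34 CPM of Scn4a (others 6.41 to 6.83). Blast library 4 had 127 CPM of Scn2b (others 99.2 to 107).

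In the amygdala, blast library 22 had 231 CPM of Cacnb3 (others 278 to 297) and sham library 14 had 344 CPM (others 285 to 299.9). Sham library 14 also had 127 CPM of Cacng7 (others 146 to 154), and blast library 4 had 1.03 CPM of Scn11a (others 0.777 to 0.847).

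In the cerebellum, blast library Cer666 had 713 CPM of Scn2a (others 545 to 577) and 31.0 CPM of Scn3a (others 19.6 to 22.8). Blast library 8 had 716 CPM of Cacna1a (others 773 to 796), and blast library 22 had 181 CPM of Scn2b (others 208 to 212).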

How the results depend on the processing

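Over 39 values of named genes and 803 alternatives, 800 kept their direction and their side of the threshold, and 1 lost its call (Scn3b, amygdala against anterior cortex, given in the text). The other 2 turned: Cacnb2 in the hippocampus was −0.0087 without sham library 14 (up to 0.14 without sham library 15), and Cacng7 in the anterior cortex was −0.092 without the 4 libraries that stand apart. The cause was not tested. No blast call arose for a member under any alternative. The 39 values tallied are the largest called differences between regions and the blast values with the smallest p, none of which was called. Not every member near the threshold is among them. The calls of Cacna1c, Cacna1e and Scn8a, which changed with the libraries left out, are given in the text and are not in this tally.

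Counts of members with an unadjusted p under 0.05 moved. In the hippocampus (1 member) they were 0 with no filter, by DESeq2 and without the 3 libraries high in choroid plexus markers, and 2 in 1 model of 40 libraries. In the amygdala (2 members) they were 1 with a gene length trend removed and 0 in 1 model. In the anterior cortex (1 member) they were 2 with RLE, 3 with no filter, by DESeq2 and in 1 model, and 0 with the length trend removed. In the cerebellum (5 members) they were 3 in 1 model. For the interaction (1 member) they were 2 with no filter. Leaving out 1 library at a time gave 0 to 2 in the hippocampus (2 without sham 14), 0 to 3 in the amygdala (3 without sham 11), 0 to 4 in the anterior cortex (4 without sham 14), 1 to 6 in the cerebellum (1 without blast 4, 6 without sham 15) and 1 to 3 for the interaction.

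Called members between sham regions ranged, with 1 library left out, over 31 to 36 for any difference, 27 to 31 in the cerebellum against the forebrain, 16 to 20 in the hippocampus against the amygdala, 21 to 25 in the hippocampus against the anterior cortex and 10 to 14 in the amygdala against the anterior cortex. Of all genes, 11357 to 12227, 9410 to 10333, 2636 to 3720, 5906 to 7503 and 2335 to 4987 were called in the same order. The blast libraries, an alternative chosen after seeing the data, gave 25 in the hippocampus against the amygdala and 18 in the amygdala against the anterior cortex, over the members tested there. Without the 4 sham libraries that stand apart, 8 members were called in the amygdala against the anterior cortex and 20 in the hippocampus against the anterior cortex, while of all genes 1125 (3415 with them) and 4011 (6846 with them) were.

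Libraries of different regions share numbers. In their deviations from the group means, same-numbered blast libraries had correlations of −0.098 to 0.25 (median 0.077), with 11 of 30 pairs over 0.1, and same-numbered sham libraries of −0.15 to 0.44 (median 0.032), with 8 of 27. Of pairs with different numbers, 11 of 120 in blast and 13 of 123 in sham were over 0.1. Same-numbered pairs thus passed 0.1 more often, but the labels do not say that a shared number means the same animal. The main fits treat the libraries of different regions as independent. If the numbers do pair the samples, the main p-values between regions ignore that pairing. With the replicate block, the interaction had 0 calls and 2 members at an unadjusted p under 0.05, and the sham contrasts had 31, 28, 16, 22 and 10 called members in the order above, with 2243 of all genes called in the amygdala against the anterior cortex. Low counts kept Scn10a and Cacng1 from the blast test in every region, Scn11a in the hippocampus and the anterior cortex, and Cacna1s and Cacna2d4 outside the anterior cortex.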
